A study of Mus musculus with 8 samples.

Results

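A set of 10 imprinted genes with known roles in growth was followed in the embryonic mouse pancreas after loss of Sox9. They are Igf2, H19, Dlk1, Peg3, Peg10, Cdkn1c, Mest, Plagl1, Grb10 and Igf2r. They were taken by name from the arrays, where the 10 genes had 18 probes among 41174 non-control probes with 27827 gene names. All 10 genes passed the filter on dim probes and were tested among 18505 genes, and all were well above background on 8 of 8 arrays. The RNA came from dorsal pancreatic epithelia microdissected by hand on embryonic day e12.5, and each sample combined the dorsal pancreata of 3 embryos, with 250 ng labelled with the dye Cy3. Mutant embryos carried Sox9 fl/fl alleles, which Cre recombinase can cut, and a Pdx1-Cre transgene, whose promoter drives Cre in the pancreatic epithelium. Wild-type embryos were Sox9 fl/fl littermates without Cre, so that Cre and the deletion cannot be told apart and no group had unmodified Sox9 alleles. The floxed line was on a mixed FVB/N and C57Bl/6J background and the Cre line on C57Bl/6J. Each genotype had 4 arrays, although the series text speaks of fewer biological replicates, so the p-values measure the spread between these 4 samples.

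Imprinted genes are transcribed mainly from the maternal or from the paternal copy, under the control of DNA methylation set in the germ line. Several of them act on growth before birth: Igf2 is a secreted growth factor, Igf2r removes it, and Cdkn1c holds back the cell cycle. In mid-gestation mouse embryos many of these genes are abundant in mesenchyme and other mesodermal tissue and are also found in epithelia.

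The probes below show what was read for H19, a non-coding RNA, and for 3 genes with more than 1 probe whose probes are set side by side in the results. Sequences are 60 bases long, 5′ to 3′, in lower case throughout, as the scanner files give them, with positions on mouse assembly mm8. H19 was read at chr7:142385254-142385313 and at chr7:142385503-142385650, both on the minus strand, and the second position spans 148 bases, more than the probe. Dlk1 is shown at chr12:109908025-109908084 on the plus strand, and Peg3 at chr7:6311815-6311874 on the minus strand. Grb10 is shown at chr11:11833580-11834228, a span of 649 bases, and at chr11:11870574-11870633, both on the minus strand. No genome annotation was used here to place the probes in exons or introns.
H19 A_51_P142196: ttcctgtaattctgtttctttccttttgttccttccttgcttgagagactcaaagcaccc
H19 A_52_P571350: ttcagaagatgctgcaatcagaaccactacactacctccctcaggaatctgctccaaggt
Dlk1 A_52_P177324: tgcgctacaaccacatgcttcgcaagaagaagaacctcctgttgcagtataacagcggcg
Peg3 A_51_P206037: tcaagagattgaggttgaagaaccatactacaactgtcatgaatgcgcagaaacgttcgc
Grb10 A_51_P187151: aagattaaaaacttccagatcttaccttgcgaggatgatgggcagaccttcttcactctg
Grb10 A_52_P40363: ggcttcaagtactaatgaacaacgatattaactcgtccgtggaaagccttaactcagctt

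The unit in what follows is the log2 processed signal of a gene minus the 75th percentile of its array, here called the log2 level, so that 0 is the 75th percentile. A log2 difference is the mutant mean minus the wild-type mean. Where 4 values stand in a row, they are the log2 levels of replicates 1 to 4. Levels of different genes are not compared, because probes differ in brightness. For the same reason, sums of linear levels over a list are carried by its brightest probes. The adjusted p-values come from two-sided limma tests, adjusted by the Benjamini-Hochberg method across the 18505 genes, and 0.05 was the threshold. Beside them stand two-sided exact permutation tests over all 70 ways to label the 8 arrays, which can give no p below 0.0286. No member spot was saturated on any array, but the brightest probes were read from the low-gain scan of the extended range, on 8 arrays for Mest, Cdkn1c, both probes of Dlk1 and the probes that stand for Igf2, H19, Grb10 and Plagl1, and on 2 arrays for the second probe of Igf2.

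The deleted gene was checked first. Sox9 read 3.01, 2.13, 1.82 and 2.19 in the wild-type samples and -0.61, -1.79, -0.0057 and 0.77 in the mutant samples. All 4 mutant samples lay below all 4 wild-type samples, and mutant replicate 4 kept the most Sox9 signal. Mutant minus wild-type came to -2.70 (SE 0.517, limma adjusted p = 0.0253). It missed the threshold without wild-type replicate 1, 2 or 4 (-2.46, -2.75 and -2.73) and without mutant replicate 1 (-2.63), with adjusted p up to 0.0732. Other Sox9 probes gave -3.27 and -1.44 (limma adjusted p over all probes 0.0231 and 0.0748). The probe that gave -1.44 was the dimmest, and it gave -0.85 in the authors' value table. Epithelial genes as a group were lower with Sox9. Of 17 general epithelial genes tested, 15 fell and 0 rose, with a median log2 difference of -2.31, and Cdh1, the epithelial cadherin, fell by 2.51. In bulk samples, fewer cells of a type and less RNA per cell cannot be told apart.

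Of the 10 imprinted growth genes, 0 passed the threshold in limma, against 5.37% of all genes tested (994 of 18505). Genes higher in the mutant made up 1.56% (288) and genes lower in it 3.82% (706). The authors' value table gave 524 higher and 732 lower, and normexp background correction with quantile normalization gave 551 higher and 725 lower. At an unadjusted p under 0.05 there were 5 of 10, against 18.8% of all genes. These were Igf2, Dlk1, Cdkn1c and Plagl1, each with a higher mean in the mutant (against 8.88% of all genes), and Peg3, with a lower one (against 9.95%). The groups did not overlap for 2 of 10 genes, Dlk1 and Cdkn1c, against 15.2% of all genes (7.23% with the mutant higher and 7.98% with it lower). In the authors' value table the groups did overlap for Cdkn1c. Of the 10 log2 differences, 7 lay above 0, with a median of 0.16, where 52.8% of all genes lay above 0 with a median of 0.016. Dividing by each array's median in place of its 75th percentile moved the median of all genes to 0.15, so differences of that size depend on the scaling.

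**Figure D1:**
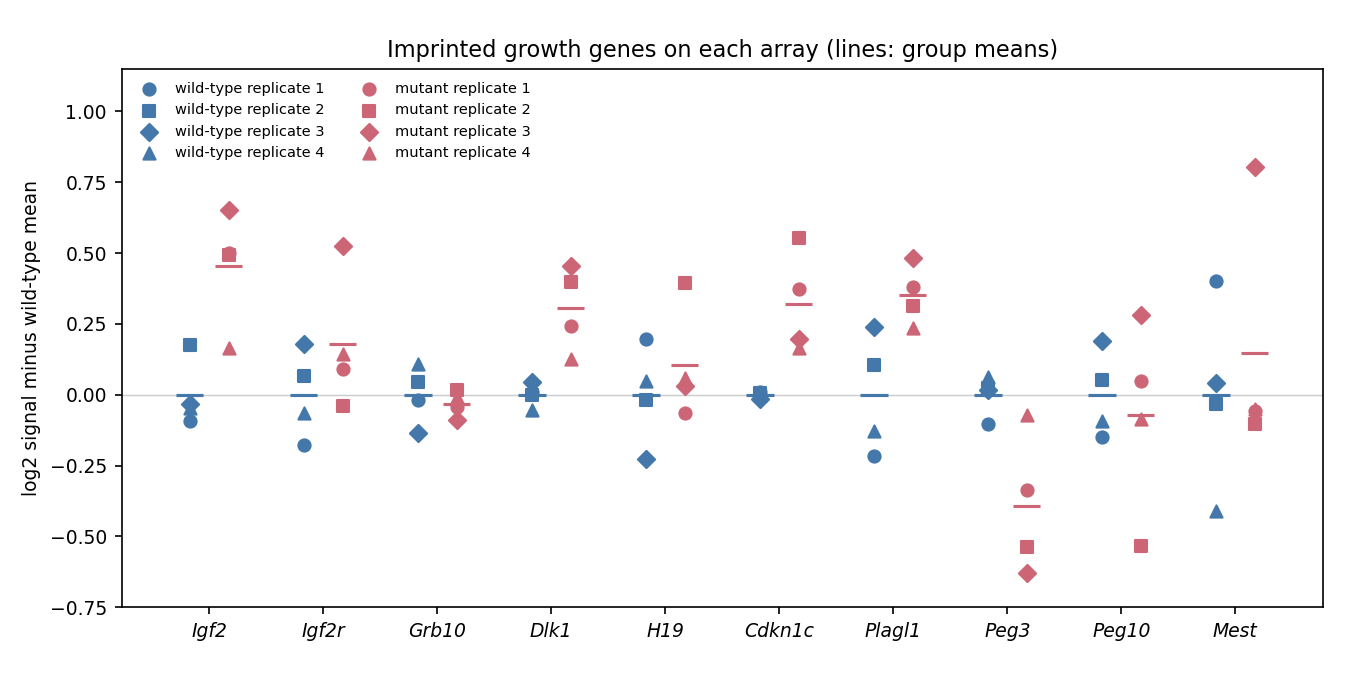
Log2 level of each imprinted growth gene on every array, shown as the deviation from that gene's wild-type mean, for 4 wild-type and 4 mutant samples, with lines at the group means. The mutant points of Dlk1 and Cdkn1c all lie above the wild-type points, those of Igf2, Plagl1 and Peg3 overlap by 1 or a few samples, and Mest in mutant replicate 3 stands apart at a level of 7.91.

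Igf2, the fetal growth factor, read 7.18, 7.45, 7.24 and 7.22 in the wild-type samples and 7.77, 7.76, 7.92 and 7.44 in the mutant samples. Mutant replicates 1 to 3 lay above every wild-type sample, and mutant replicate 4 lay just under the highest wild-type sample, replicate 2. The wild-type samples averaged 7.27 ± 0.12 (SD, n = 4) and the mutant samples 7.72 ± 0.20 (SD, n = 4). This gave a log2 difference of 0.45 (SE 0.132, limma adjusted p = 0.0941), a ratio of 1.37 with a 95% interval of 1.11 to 1.69, and the exact permutation p was 0.0571. This was the largest difference among the 10 genes, larger in size than that of 78.9% of all genes tested. Without mutant replicate 4 it was 0.55 with an adjusted p of 0.0499 in limma, the only setting tried in which an imprinted growth gene passed. The main Igf2 probe was spotted 10 times on each array, with an SD between its spots of 0.033 to 0.068, below the spread between samples. A second Igf2 probe, at chr7:142460600-142460659, gave a log2 difference of 0.54 (limma adjusted p over all probes 0.152), near that of the main probe at chr7:142460185-142460245.

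H19, the maternally expressed non-coding RNA beside Igf2 that shares its enhancers, read 6.10, 5.89, 5.68 and 5.95 in the wild-type samples and 5.84, 6.30, 5.94 and 5.96 in the mutant samples. The groups overlapped almost fully. The log2 difference was 0.11 with a 95% interval of -0.22 to 0.43 (limma adjusted p = 0.820), and the second probe shown above gave 0.08. Ins2, the insulin gene on the other side of Igf2 and a product of beta cells, had a log2 difference of -0.56 (limma adjusted p = 0.0650), with no overlap between the groups. It passed the threshold under 6 of 22 other settings, 1 of them the authors' value table (-0.50, limma adjusted p = 0.0401). A test of the difference between Igf2 and its neighbours was not made.

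Igf2r, the receptor that carries Igf2 to lysosomes, read 4.35, 4.59, 4.71 and 4.46 in the wild-type samples and 4.62, 4.49, 5.05 and 4.67 in the mutant samples. The groups overlapped, and mutant replicate 3 was the highest sample. Mutant minus wild-type came to 0.18 with a 95% interval of -0.16 to 0.52 (limma adjusted p = 0.642). Around Igf2r, the antisense RNA Airn had a log2 difference of -0.42 (limma adjusted p = 0.496). The cation transporter gene Slc22a2 fell by 2.03 (limma adjusted p = 0.0460) but was well above background on 1 of 4 mutant arrays only, and in the authors' value table its log2 difference was -0.34 (limma adjusted p = 0.212). The Slc22a2 call held in 1 of the 8 fits that left out an array, that without mutant replicate 4 (-2.44), and its adjusted p rose to 0.112 at most in the other 7.

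Grb10, an adaptor that damps insulin and Igf receptor signalling, read 5.98, 6.04, 5.86 and 6.11 in the wild-type samples and 5.95, 6.01, 5.91 and 5.99 in the mutant samples. All mutant samples lay inside the wild-type range. This gave a log2 difference of -0.03 with a 95% interval of -0.26 to 0.19 (limma adjusted p = 0.934), and its sign turned to 0.11 under scaling by the array median. The 2 dimmer probes whose sequences are printed above did not give 1 value. The probe A_51_P187151 gave -0.09 and the probe A_52_P40363 gave -0.39 (limma adjusted p over all probes 0.228), with mutant replicate 3 inside the wild-type range and the other 3 mutant samples below it.

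Dlk1, a membrane protein of the Delta family with epidermal growth factor repeats, read 7.44, 7.43, 7.47 and 7.38 in the wild-type samples and 7.67, 7.83, 7.88 and 7.55 in the mutant samples. Every mutant sample lay above every wild-type sample, and mutant replicate 4 was the closest to them. The log2 difference was 0.31 (SE 0.108, limma adjusted p = 0.160), a ratio of 1.24 with a 95% interval of 1.04 to 1.47, and the exact permutation p was 0.0286. The probe printed above gave 0.39, with mutant replicate 4 (6.11) just below wild-type replicate 4 (6.12). Meg3, the maternally expressed non-coding RNA of the same cluster, had a log2 difference of -0.04 (limma adjusted p = 0.952), whose sign turned to 0.10 under scaling by the array median.

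Cdkn1c, an inhibitor of cyclin-dependent kinases, read 6.85, 6.85, 6.83 and 6.84 in the wild-type samples and 7.22, 7.40, 7.04 and 7.01 in the mutant samples. The wild-type samples were almost equal, and every mutant sample lay above them. Mutant minus wild-type came to 0.32 (SE 0.115, limma adjusted p = 0.165), with a 95% interval of 0.058 to 0.58, and the exact permutation p was 0.0286. The SD was 0.011 (n = 4) in wild-type and 0.18 (n = 4) in mutant samples, a ratio of 15.9. Both the narrow wild-type spread and the separation depended on the processing. In the authors' value table the log2 values of the wild-type samples were 15.59, 15.84, 15.82 and 15.90. Mutant replicate 3, at 15.70, lay inside that range there, so the groups overlapped. The neighbours of Cdkn1c did not share 1 direction. Phlda2, a regulator of placental growth, had a log2 difference of 0.34 (limma adjusted p = 0.468) and the transporter gene Slc22a18 had -0.42 (limma adjusted p = 0.157). The potassium channel gene Kcnq1 fell by 0.81 (limma adjusted p = 0.0484), a call that held in 1 of the 8 fits that left out an array, that without wild-type replicate 2 (-0.96), with an adjusted p of up to 0.128 in the other 7.

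Plagl1, a zinc finger transcription factor, read 6.34, 6.67, 6.80 and 6.43 in the wild-type samples and 6.94, 6.87, 7.04 and 6.80 in the mutant samples. The groups met at the edge, where wild-type replicate 3 and mutant replicate 4 were both at 6.80 and the mutant sample was the lower by a narrow margin. This gave a log2 difference of 0.35 (SE 0.131, limma adjusted p = 0.184), and the exact permutation p was 0.0571. In the authors' value table the overlap was wider. There wild-type replicate 3 (log2 value 15.97) lay above mutant replicates 2 (15.93) and 3 (15.89). A dimmer probe at chr10:12819862-12819921 did not follow the bright one at chr10:12821672-12821731. It gave a log2 difference of -0.01, with wild-type replicate 3 at 2.65 and the other 3 wild-type samples between 0.79 and 1.24. With the mean of both probes, the log2 difference of Plagl1 was 0.17.

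Peg3, a paternally expressed zinc finger protein, read 3.35, 3.48, 3.47 and 3.52 in the wild-type samples and 3.12, 2.91, 2.83 and 3.38 in the mutant samples. Mutant replicates 1 to 3 lay below every wild-type sample, and mutant replicate 4 lay above wild-type replicate 1. The log2 difference was -0.39 (SE 0.139, limma adjusted p = 0.160), a ratio of 0.761 with a 95% interval of 0.610 to 0.950, and the exact permutation p was 0.0571. Its other probes gave -0.29 and -0.33 (limma adjusted p over all probes 0.441 and 0.657). On the probe that gave -0.29, mutant replicate 4 (1.67) lay above every wild-type sample (1.58 to 1.61). The probe that gave -0.33 was dim, with a wild-type mean of -3.88 and a 95% interval of -0.91 to 0.26. In the authors' value table this dim probe gave -0.06. The genes beside Peg3 had log2 differences of -0.25 for Zim1, a zinc finger gene, and of -0.28 for Usp29, a ubiquitin-specific protease (limma adjusted p = 0.485 and 0.654).

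Peg10, a gene derived from a retrotransposon and needed in the mouse placenta, read -2.55, -2.35, -2.21 and -2.49 in the wild-type samples and -2.35, -2.93, -2.12 and -2.49 in the mutant samples. The mutant samples spread on both sides of the wild-type samples. Mutant minus wild-type came to -0.07 with a 95% interval of -0.49 to 0.34 (limma adjusted p = 0.916), and its sign turned under 4 other ways of processing the arrays, the authors' value table among them, to between 0.05 and 0.07. Its neighbours had log2 differences of 0.34 for Sgce, a sarcoglycan, and -0.19 for Ppp1r9a, a neurabin (limma adjusted p = 0.393 and 0.772).

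Mest, which encodes a protein of the hydrolase fold family, read 7.51, 7.07, 7.15 and 6.70 in the wild-type samples and 7.05, 7.003, 7.91 and 7.06 in the mutant samples. Mutant replicates 1, 2 and 4 were nearly equal and lay inside the wild-type range, and mutant replicate 3 lay far above. This gave a log2 difference of 0.15 with a 95% interval of -0.42 to 0.72 (limma adjusted p = 0.862), and without mutant replicate 3 it was -0.07. Copg2 and Klf14, beside Mest, had log2 differences of 0.06 and 0.14 (limma adjusted p = 0.897 and 0.791).

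**Figure D2:**
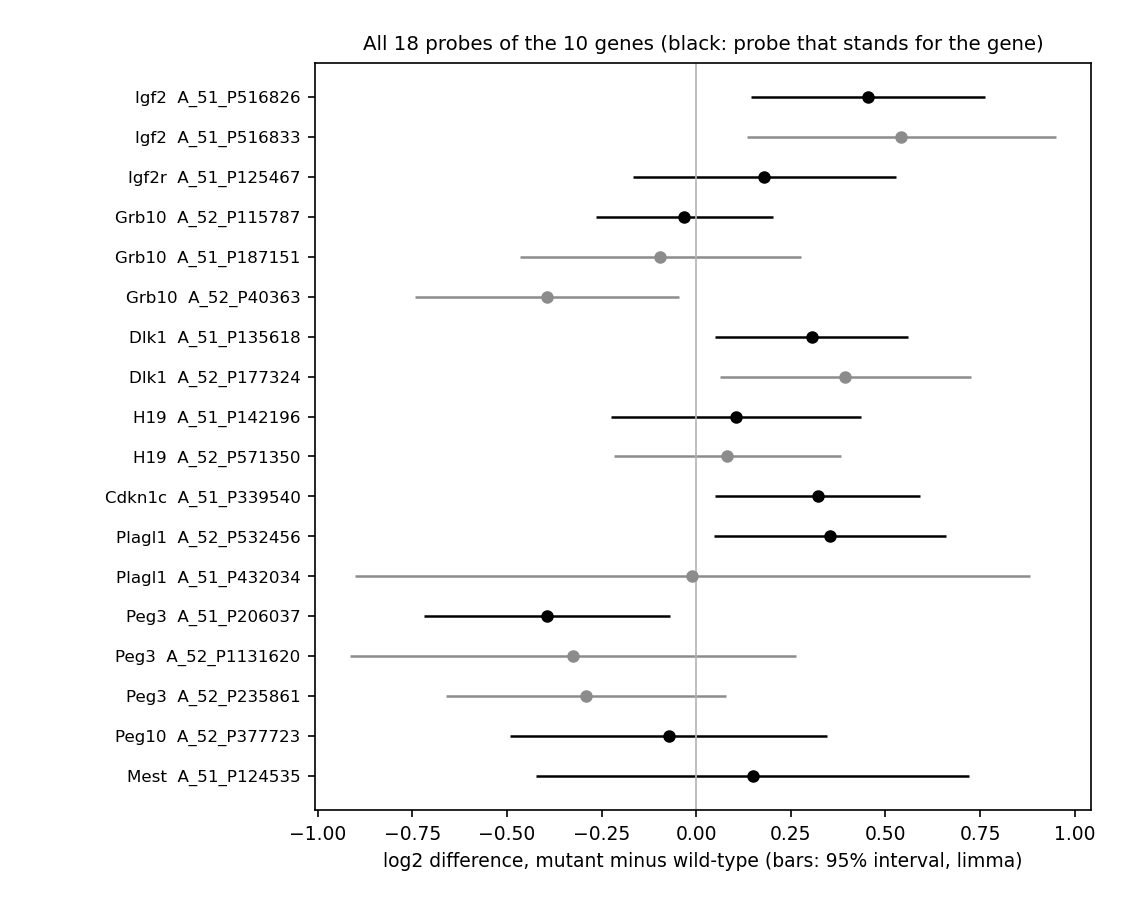
Log2 difference, mutant minus wild-type, with its 95% interval for each of the 18 probes, black where the probe stands for its gene. The points of Igf2 (0.45 and 0.54), Dlk1 (0.31 and 0.39), H19 (0.11 and 0.08) and Peg3 (-0.39, -0.29 and -0.33) lie close together. Those of Plagl1 (0.35 and -0.01) and Grb10 (-0.03, -0.09 and -0.39) lie further apart. The intervals are wide for the dimmer Plagl1 probe (-0.90 to 0.88) and the dimmest Peg3 probe (-0.91 to 0.26).

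The other imprinted genes gave a wider background for these values. Of 45 other imprinted genes listed, 41 were on the array and 39 were tested, with 1 higher and 3 lower past the threshold and a median log2 difference of -0.01. Magel2, a gene of the Prader-Willi cluster, rose by 0.73 (limma adjusted p = 0.0291). Its call held in 1 of the 8 fits that left out an array, that without mutant replicate 3 (0.79), and its adjusted p reached 0.0815 at most in the other 7. Rasgrf1, a guanine nucleotide exchange factor, fell by 2.06 (limma adjusted p = 0.00813) but was well above background on 3 of 4 mutant arrays only. Rasgrf1 passed in all 8 fits that left out an array. Its size was -0.90 in the authors' value table and -0.77 with normexp, and the part of the dim mutant signal in these smaller sizes was not tested. Kcnq1 and Slc22a2 were the other genes that fell.

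Of 24 tested genes of the Igf pathway, 2 rose and 0 fell, with a median log2 difference of 0.15. Both that rose encode secreted proteins that bind Igf. Igfbp5 read 4.52, 5.03, 4.71 and 4.90 in the wild-type samples and 5.47, 5.44, 5.60 and 5.32 in the mutant samples. All mutant samples lay above all wild-type samples, and the log2 difference was 0.67 (SE 0.137, limma adjusted p = 0.0310). Igfbp4 gave 0.53 (SE 0.120, limma adjusted p = 0.0427). In fits that left out 1 array, Igfbp5 passed only without wild-type replicate 2 (0.75) or mutant replicate 4 (0.72), and Igfbp4 only without wild-type replicate 2 (0.61), with adjusted p up to 0.0907 and 0.124. Under scaling by the array median, Igfbp5 gave 0.81 (limma adjusted p = 0.0965) and Igfbp4 gave 0.67 (adjusted p = 0.157). Of the receptors of Igf2 signalling, Igf1r had a log2 difference of -0.05 and Insr of -0.27 (limma adjusted p = 0.940 and 0.601).

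**Figure D3:**
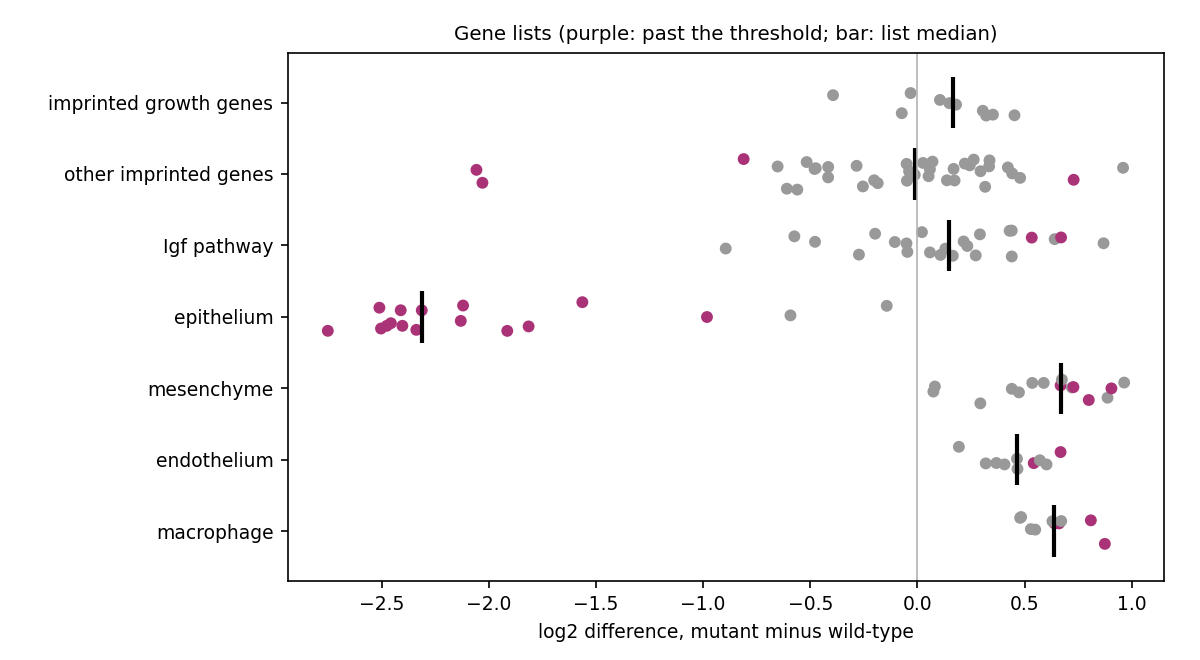
Log2 difference, mutant minus wild-type, of each tested gene in the lists of imprinted growth genes, other imprinted genes, Igf pathway genes and cell type markers, purple where the gene passed the threshold, with a bar at the list median. The imprinted growth genes lie between -0.39 and 0.45 with none past the threshold, while the epithelial genes have a median of -2.31 and the mesenchymal genes one of 0.67.

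Markers of other cell types moved with genotype as well. Of 15 mesenchymal genes, all well above background on 8 arrays, 4 rose and 15 had a log2 difference above 0, with a median of 0.67. Pdgfra, a receptor of mesenchymal cells, rose by 0.80 (limma adjusted p = 0.0349), with calls in 2 of the 8 fits that left out an array, those without mutant replicate 3 (0.66) or mutant replicate 4 (0.89), and an adjusted p of up to 0.0893. The summed linear level of the mesenchymal list, in units of the array's 75th percentile, ran from 329 to 421 in wild-type and from 471 to 635 in mutant samples. That of the epithelial list ran from 105 to 145 and from 37.2 to 59.1, and that of the 10 imprinted growth genes from 785 to 859 and from 896 to 1144. The sum of the imprinted growth genes is no rise of the whole set. It was carried mostly by Dlk1, Igf2, Mest and Cdkn1c (wild-type mean log2 levels 7.43, 7.27, 7.11 and 6.84). Peg3 (3.45) and Peg10 (-2.40) added little. Among the other lists, 2 of 6 mesothelial, 2 of 10 endothelial, 4 of 10 macrophage and 2 of 8 liver genes rose (medians 0.83, 0.47, 0.64 and 1.44), 0 of 9 erythroid genes passed (median 0.44), and 3 of 4 neural crest genes fell (median -1.26). Of 6 neural crest genes listed, 4 were tested. Erbb3, with a log2 difference of -2.36, near the epithelial median of -2.31, was among those that fell. Summed levels of these lists ran, wild-type against mutant, from 3.45 to 5.43 against 7.11 to 10.7 for mesothelium, from 25.2 to 28.3 against 31.8 to 43.2 for endothelium and from 16.8 to 20.7 against 25.2 to 34.6 for macrophages. They ran from 158 to 234 against 182 to 275 for erythroid cells, from 16.6 to 23.8 against 45.5 to 119 for liver and from 3.83 to 4.99 against 0.841 to 1.46 for neural crest. Erbb3 carried most of the neural crest sum in wild-type. The mean log2 level of the liver list was 0.83, 1.58, -0.56 and -0.51 in mutant replicates 1 to 4. In the wild-type samples that mean ran from -1.57 to -0.70. No tested marker of these lists was below background on every array. When single arrays were left out, the number of genes that rose ran from 1 to 5 for mesenchyme, from 0 to 4 for macrophages, from 0 to 2 for mesothelium, from 0 to 1 for endothelium and from 1 to 2 for liver. Without mutant replicate 4, these counts were 5, 4, 2, 1 and 2, and without mutant replicate 3 they were 2, 2, 2, 0 and 2. On leaving out 1 of the other 6 arrays, mesothelium and endothelium had 0, mesenchyme 1 or 2 and macrophages 0 or 1. On all 8 arrays, mesenchyme had 2, macrophages 1 and endothelium 0 under scaling by the array median. With no filter on dim probes, mesenchyme and liver had 1 and the other 3 lists had 0. Other settings gave more calls than the main fit. Mesenchyme had 7 and endothelium 3 with normexp, and mesenchyme had 8 with slide as a random block. Macrophages had 7 with slide as a fixed block, and mesothelium had 5 with array weights. Erythroid genes that rose numbered 0 to 2 and neural crest genes that fell 2 to 3 when single arrays were left out. The part of these shifts in the levels of Igf2, Dlk1, Cdkn1c, Plagl1 and Peg3 was not tested.

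Mutant replicate 4 was the mutant sample nearest to the wild-type mean for 5 of 5 imprinted growth genes with an unadjusted p under 0.05 and for 7 of all 10. It was the nearest for 34.9% of all genes and for 66.5% of the genes past the threshold. The mean log2 level of the epithelial list was 0.24 in mutant replicate 4 and -0.43, -1.15 and -0.77 in mutant replicates 1 to 3, against 1.25 to 1.64 in the wild-type samples. The mean of the mesenchymal list was 3.48 in mutant replicate 4, 3.55, 3.66 and 3.90 in mutant replicates 1 to 3, and 2.84 to 3.22 in the wild-type samples. Mutant replicate 4 was thus the mutant sample with the highest epithelial and the lowest mesenchymal level.

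**Figure D4:**
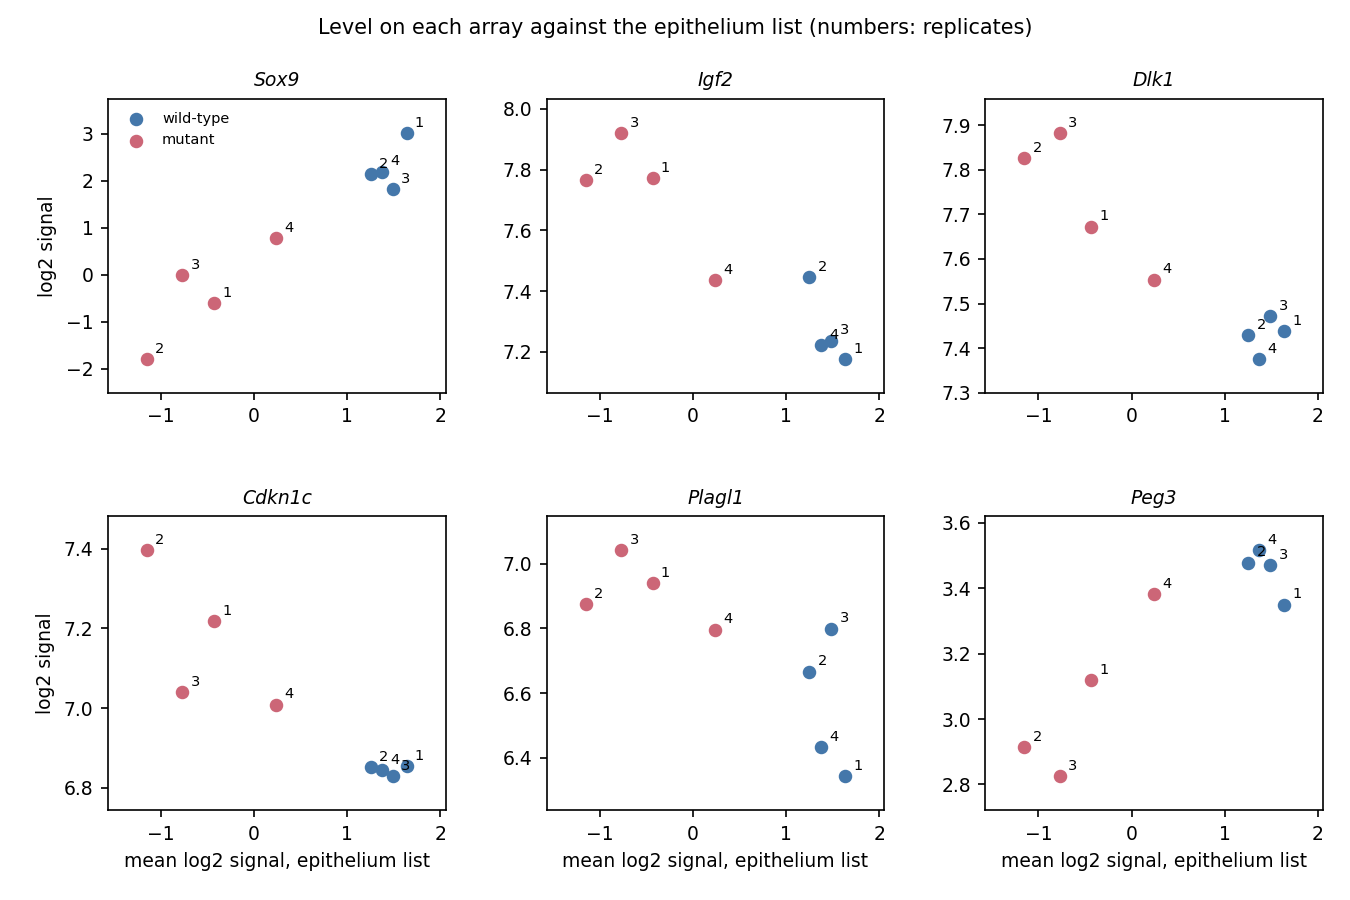
Log2 level of Sox9 and of the imprinted growth genes Igf2, Dlk1, Cdkn1c, Plagl1 and Peg3 on each array (vertical axes). The horizontal axes show the mean log2 level of the epithelial gene list, with replicate numbers beside the points. Mutant replicate 4 lies at 0.24 on the horizontal axis, nearest of the mutant samples to the wild-type samples at 1.25 to 1.64.

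The arrays lay on 3 slides, each with both genotypes. Wild-type replicate 2 shared slide 1 with mutant replicate 3. Wild-type replicate 3 shared slide 2 with mutant replicates 1 and 4, and mutant replicate 2 shared slide 3 with wild-type replicates 1 and 4. Within slides 1, 2 and 3, the log2 difference of Igf2 was 0.47, 0.37 and 0.57, that of Dlk1 was 0.45, 0.14 and 0.42, and that of Cdkn1c was 0.19, 0.28 and 0.55. Plagl1 gave 0.38, 0.07 and 0.49, and Peg3 gave -0.65, -0.22 and -0.52. All 5 genes, which had been picked by their unadjusted limma p on these same arrays, kept their sign on every slide. H19 did as well (0.05, 0.23 and 0.27), while Mest (0.84, -0.09 and -0.10), Igf2r (0.46, -0.06 and 0.08), Peg10 (0.23, -0.21 and -0.41) and Grb10 (-0.14, 0.11 and -0.03) did not. Sox9 gave -2.14, -1.74 and -4.39. Embryo sex was not matched in full. The summed linear level of 3 Y-linked genes ran from 0.0349 to 1.67 in wild-type and from 1.04 to 3.28 in mutant samples. Of these, Ddx3y read -6.84, -4.86, -0.82 and -7.43 in wild-type and 0.11, -0.85, -0.92 and -1.37 in mutant samples. For Ddx3y and Eif2s3y, only wild-type replicate 3 reached the mutant range. Y-linked genes past the threshold and higher numbered 0 in the main fit. They numbered 3 without wild-type replicate 3, with array weights and with the array median. The part of embryo sex in the results was not tested.

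**Figure D5:**
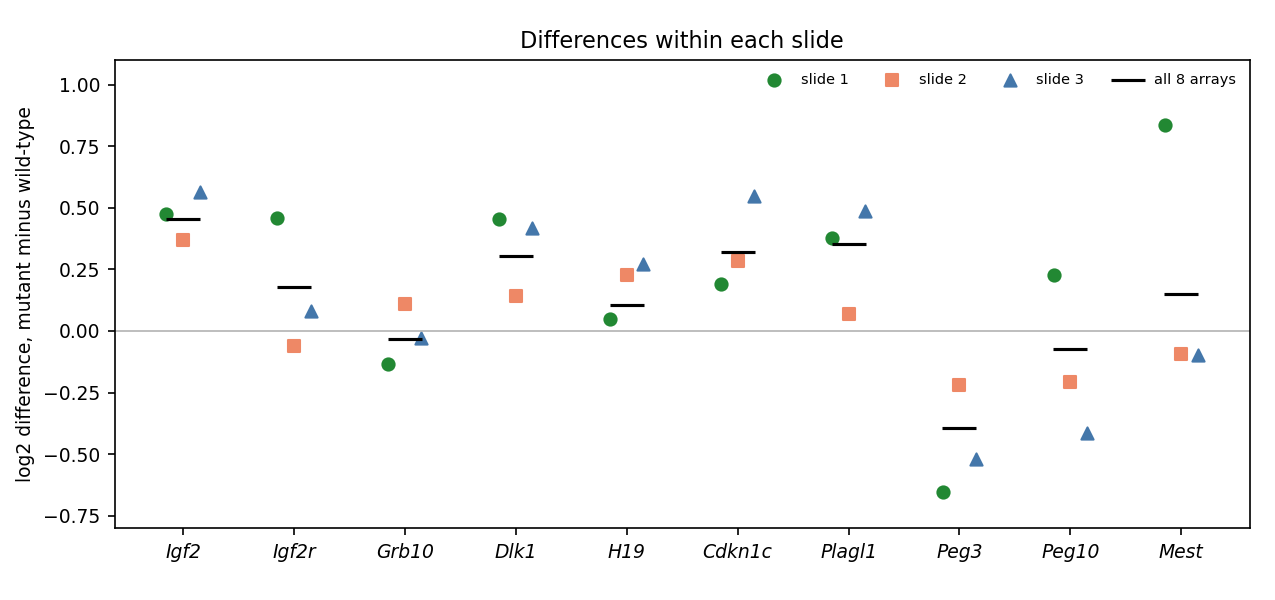
Log2 difference, mutant minus wild-type, of each imprinted growth gene within slides 1, 2 and 3 and over all 8 arrays. Igf2, Dlk1, Cdkn1c, Plagl1 and H19 lie above 0 on each slide and Peg3 below 0, while Mest is at 0.84 on slide 1 and near 0 on the other slides.

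For each imprinted growth gene, the non-member gene with the most similar profile was found as the smallest root mean square difference between log2 levels centred on their mean over the 8 arrays. For Igf2 this was Rsu1, a Ras suppressor protein (0.067, against an SD of Igf2 over the arrays of 0.29), and Rsu1 rose by 0.48 (limma adjusted p = 0.0477), a call that held in 1 of the 8 fits that left out an array, that without mutant replicate 4 (0.55). For Dlk1 it was Zcchc3 (0.044), for Cdkn1c Ccdc102a (0.037), for Plagl1 Zfp763 (0.049) and for Peg3 Rnf141 (0.083). For H19 it was Mrgpre (0.052), for Igf2r Abi2 (0.040), for Grb10 Txndc16 (0.028), for Mest Dynlt1b (0.035) and for Peg10 C2cd3 (0.055). Among 18505 genes and 8 arrays a close profile is easily found, and these values are a description.

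Promoter windows around the start sites were read from RefSeq on GRCm38.p6, where 7 of the 10 genes had 13 windows. Sox-type motifs were searched on both strands. ACAATG was in 1 of 13 windows, at an Igf2 start (chr7:142661222-142661521, minus strand), against 12.6% of 32851 windows of all genes. ACAAAG was in 0 of 13, against 18.7%. A match is a description of letters and not a site.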

How the data were processed

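The series measured RNA of dorsal pancreatic epithelia on 8 single-colour Agilent arrays, 4 per genotype. Per the file headers, Agilent Feature Extraction 9.5.3.1 produced the scanner files, with probe positions on mm8. The deposited signals are intensity values on a linear scale. Per the file headers, the processed signal was background subtracted, and it was not normalized between arrays. The deposited quality columns are flags, counted as other than a measurement. The authors' deposited value table also holds intensity values, with a median of 227 in every array. Its rows followed the spot order of the scanner files (rank correlation of at least 0.999 with the mean signal), and its background treatment is not given in the sources used here, nor is its exact scale.

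Control spots and spots flagged as outliers were left out, the log2 of the processed signal was taken, each array's 75th percentile was subtracted and replicate spots were averaged per probe. Probes well above background on at least 4 arrays were kept. The kept probe of highest mean signal stood for a gene, taken among probes saturated on no array where there were any. This gave 18505 genes. RefSeq accessions named 23361 probes, a probe with the same file name named 4497 more, synonyms named 13, and the file named the others. Genotypes were compared with lmFit and eBayes (limma 3.58.1, R 4.3.3, with the R package data.table, version 1.17.8). Tables and figures used Python 3.11.15, pandas 2.3.3 and matplotlib 3.10.9. Tested on simulated data of 18505 genes for this comparison, the fit recovered 7.58% of log2 changes of 0.5, 38.8% of changes of 1 and 89.6% of changes of 2, with 2 false calls. The number of arrays limits the precision. Between 59.4% and 77.7% of spots were well above background on each array.

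The members and gene lists were chosen with earlier results of these data known. The genes named are the members, Sox9, listed imprinted and Igf pathway genes past the threshold, the genes beside a member in its imprinted cluster and the nearest gene by profile. Marker, Igf1r and Insr values were added as examples after their values were seen. Rtl1 and Kcnq1ot1, named by the rule, were not analysed here, and Slc22a3 did not pass the filter on dim probes. Alternatives were other background corrections, scalings and filters, the authors' value table, the rule for several probes, flagged spots, slide and replicate number as blocks, array weights and leaving out each array.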

Additional observations from a re-analysis of the deposited data

Results flagged for a closer look

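Mest in mutant replicate 3 had a log2 level of 7.91, and the nearest of the other mutant samples was at 7.06. The gap made up 0.941 of the range of the group, above Dixon's 95% critical value for 4 samples. It was 1 of 20 groups tested, and chance flags about 1 in 20. Without this sample the log2 difference of Mest was -0.07 in place of 0.15.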

How the results depend on the processing

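The count of imprinted growth genes past the threshold was 0 under 21 of 22 alternatives and 1 without mutant replicate 4. Igf2 ran from 0.37 to 0.59 over the 22 (adjusted p 0.0499 to 0.233 in limma), Dlk1 from 0.22 to 0.44 (0.103 to 0.410), Cdkn1c from 0.24 to 0.46 (0.0724 to 0.394), Plagl1 from 0.17 to 0.49 (0.0866 to 0.843) and Peg3 from -0.50 to -0.25 (0.0682 to 0.650), none with a change of sign. With the array median, the differences of Grb10, Meg3 and Peg10 turned to 0.11, 0.10 and 0.066. Peg10 also turned with normexp (0.049), in the authors' table (0.059) and with quantile normalization (0.046), Meg3 with slide as a fixed block (0.045), and Copg2 with the mean of probes (-0.031). When single arrays were left out, Grb10 ran from -0.077 to 0.0044, Peg10 from -0.19 to 0.081, Mest from -0.069 to 0.28, Meg3 from -0.11 to 0.085, Copg2 from -0.015 to 0.12 and Klf14 from -0.0030 to 0.21. Sox9 lost its call with no filter on dim probes (-2.70, adjusted p = 0.0599 in limma) and ran from -3.09 to -2.24 when single arrays were left out. The count of all genes was 583 with the array median, 419 with no filter, 1529 with slide as a random block, 1709 with array weights and 395 to 976 without single arrays, against 994. The split was 288 higher and 706 lower, and 524 and 732 in the authors' table. The cause of these changes was not tested.

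No pairing by replicate number was seen, with correlations of same-numbered deviations of -0.354, -0.295, -0.0049 and 0.0877. Samples of unlike number were not set beside them, so these values cannot exclude a pairing. With the replicate block, Sox9 was at -2.70 (adjusted p = 0.0697 in limma), 340 genes and 0 imprinted growth genes passed, and Igf2 stayed at 0.45 (adjusted p = 0.233). Of the marker lists, liver then had 1 gene that rose, and mesenchyme, mesothelium, endothelium and macrophages had 0. With 4 arrays a group, log2 changes of 0.5 were rarely recovered in the simulated data, which held fewer changed genes than were called here. Values of this size that miss the threshold are not shown to be equal.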
